A study of Mus musculus with 2 samples.

Results

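Cd320 and 7 other genes that take up, process and use vitamin B12 (cobalamin) were examined in the livers of mice given an oligonucleotide against miR-122. The members were the genes Cd320, Tcn2, Lmbrd1, Mmachc, Mmab, Mmaa, Mtr and Mtrr, each with every probe set that the array annotation pairs with that gene alone. All 8 genes were on the array, of 18193 genes with such probe sets, and they had 19 probe sets among 45101 in all, and 0 further probe sets named a member together with another gene. The genes were listed by function, and Cd320 was included as a reported target of miR-122. The reports of such targets rest at least in part on these arrays, so the values of Cd320 are a description and not independent evidence of its direction.

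The data are 2 single-colour Affymetrix arrays of mouse liver RNA, 1 array per group. In one group the mice received antagomir-122, a chemically modified oligonucleotide that silences the hepatocyte microRNA miR-122. In the other they received mm-antagomir-122, which the labels describe as scrambled. The daily dose was 80 mg/kg in both groups. There were 3 daily doses, livers were taken 24 h after the last, and each array held RNA pooled from 3 livers. The pooling removes the spread between animals, and the labels used here give no strain, sex or age. No untreated or vehicle group was analysed here, so effects common to both oligonucleotides cannot be seen.

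Cobalamin circulates bound to transcobalamin, the product of Tcn2. The receptor encoded by Cd320 takes this complex into cells, and cobalamin leaves the lysosome through LMBRD1 together with ABCD4. In the cytosol MMACHC strips the ligand from the cobalt, and the cofactor then goes to methionine synthase (Mtr), which MTRR keeps active, or to mitochondria. There MMAB makes adenosylcobalamin, and MMAA guards its loading onto methylmalonyl-CoA mutase. The liver is the main store of the vitamin and expresses both enzymes.

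Cd320 was the member that was higher in the antagomir-122 pool by more than the 1.5-fold used here as a rule of size. Its signal on the brighter probe set (1417100_at) was 795 on the antagomir-122 array and 412 on the control array, in the arbitrary units of the MAS5 software. The antagomir-122 value was thus 1.93-fold higher, a log2 ratio of 0.95. Of the other 7 members, 6 could be read, and their log2 ratios lay between -0.40 and 0.11. None of these 6 was 1.5-fold higher or lower on its brightest probe set, which is the one that stands for a gene throughout. Cd320 therefore stood 0.84 on the log2 scale above the highest of them, Mtr, and 1.35 above the lowest, Mmachc. With 1 array per group there is no replicate error for any ratio, so no test between the conditions was possible.

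Genes were read only where the mean log2 signal of the 2 arrays reached the 60th percentile of all non-control probe sets, a signal of 238. Of the 10003 genes above this floor, 5.12% were at least 1.5-fold higher in the antagomir-122 pool and 2.62% were at least 1.5-fold lower. The 1 of 7 readable members past the threshold is Cd320, and a single gene gives no share to set against these figures. Cd320 ranked 108 from the top of the 10003 log2 ratios. Dim genes scatter more widely, so Cd320 was also placed among 2853 genes within 0.5 of its mean log2 signal, of which 5.12% were at least 1.5-fold higher and 0.771% had a ratio as high as that of Cd320 or higher. Among genes in that signal range, the 2 brightest probe sets of a gene gave log2 ratios with a spread of 0.33 per probe set (SD of their difference divided by the square root of 2, 990 genes). The log2 ratio of Cd320 was 2.91 times that spread, which covers differences between probe sets and none between animals.

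**Figure D1:**
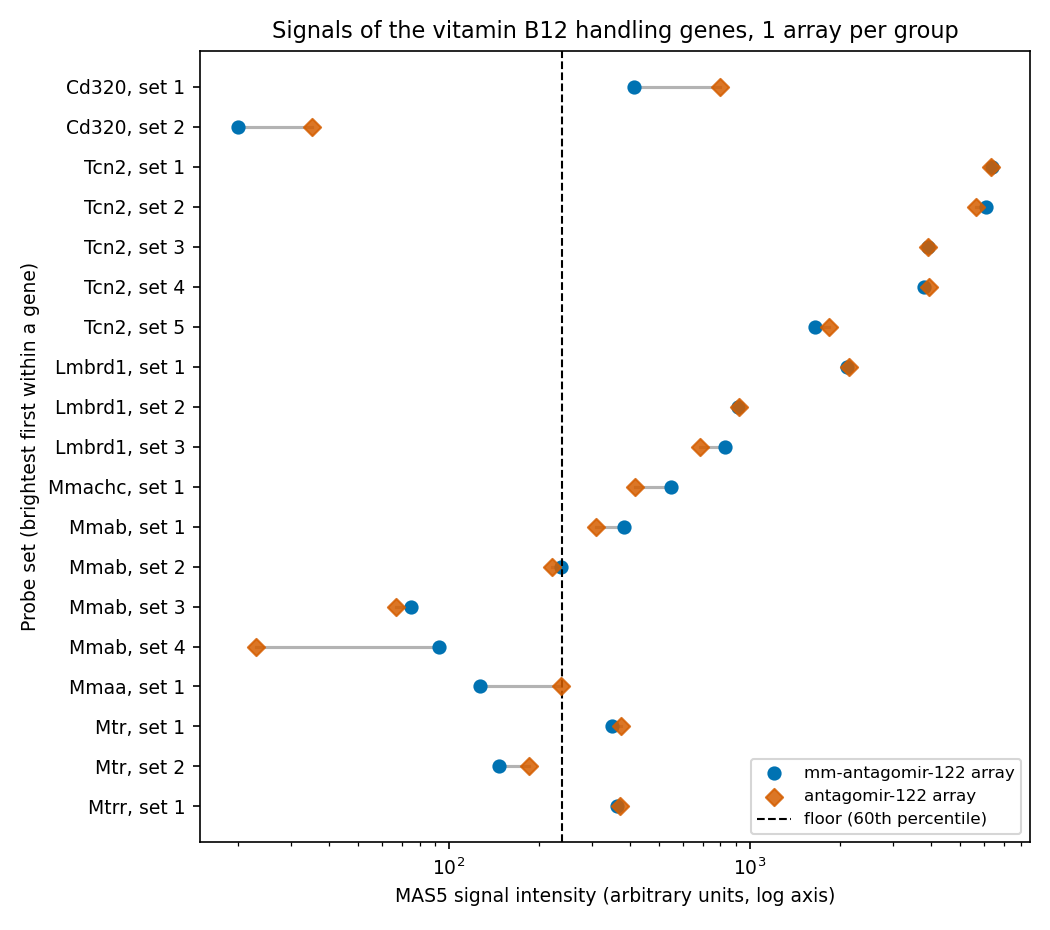
MAS5 signals (arbitrary units, log axis) of the 19 probe sets of the vitamin B12 handling genes on the antagomir-122 array (diamonds) and the mm-antagomir-122 array (circles). The dashed line is the floor of 238, and above it only the first Cd320 probe set shows a gap past 1.5-fold between its 2 symbols, 412 and 795.

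The second Cd320 probe set (1448588_at) had signals of 35.1 and 19.9, again with the higher value on the antagomir-122 array. Both values lie under the floor, so its log2 ratio of 0.82 was not read as a second measurement. The annotation gives both probe sets the same source transcript (AV336016), yet only 1417100_at was above the floor. The value of Cd320 therefore rests on 1 probe set. It carries none of the suffixes that mark possible cross-hybridisation.

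Cd320 remained higher under every scaling of the arrays that was tried. Its log2 ratio was 0.89 after median centring, 0.91 after quantile normalization, 0.91 after loess correction and 1.22 when the arrays were scaled on the spiked hybridization controls. These 18 control probe sets, which detect a few bacterial and phage transcripts added to the sample, had a median log2 ratio of -0.27, so scaling on them adds 0.27 to every gene. Under that scaling 16.9% of all genes were at least 1.5-fold higher and 0.63% lower. Directions of the small ratios below depend on this choice and are given with it.

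**Figure D2:**
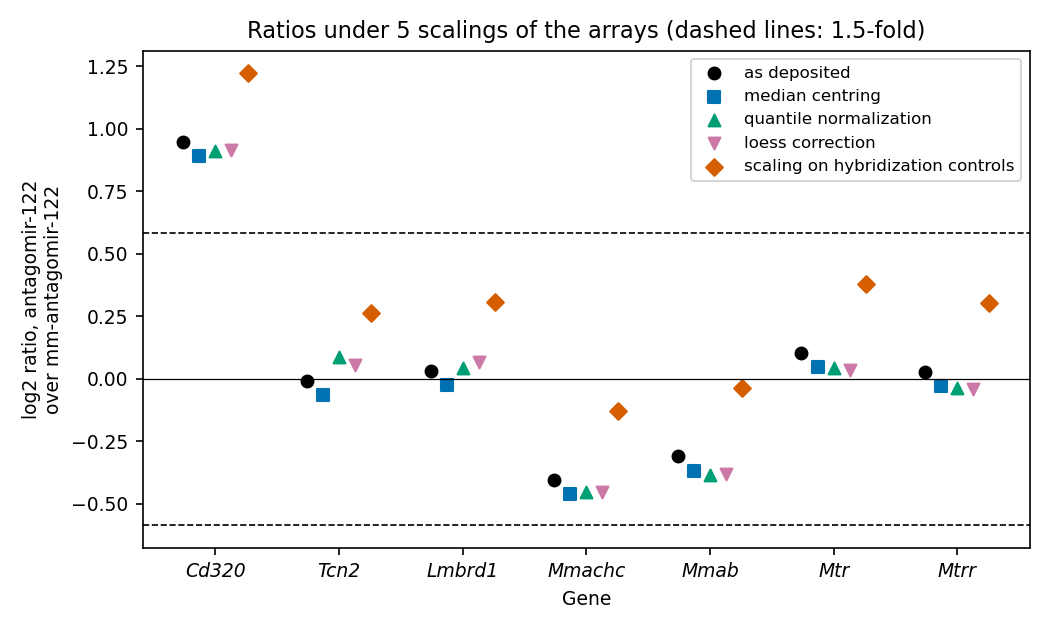
Log2 ratios (antagomir-122 over mm-antagomir-122) of the 7 readable vitamin B12 handling genes under 5 scalings, 1 array per group and no error bars. Cd320 lies between 0.89 and 1.22 in all 5, above the dashed 1.5-fold line, and no other gene reaches either dashed line.

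The ligand of the receptor, transcobalamin, gave nearly equal signals on the 2 arrays. Tcn2 had 5 probe sets, all above the floor. The brightest read 6361 on the antagomir-122 array and 6401 on the control array, a log2 ratio of -0.01. Over the 5 probe sets the log2 ratios ran from -0.11 to 0.15, with a mean of 0.02 and an SD of 0.10. Of the 5, 4 have the suffix _x, which marks probes that may bind other transcripts. The remaining one, 1448200_at, read 3951 and 3799, a log2 ratio of 0.06. The sign of the brightest turned with the scaling, from -0.07 after median centring to 0.27 on the hybridization controls.

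Lmbrd1, the lysosomal exporter component, also had nearly equal signals. Its brightest probe set read 2149 on the antagomir-122 array and 2102 on the control array, a log2 ratio of 0.03. The second read 919 and 917. The third, 1455617_at, was lower in the antagomir-122 pool at 683 against 830, a log2 ratio of -0.28. The 3 probe sets thus differ by 0.31 in log2 ratio, and none was 1.5-fold apart. Its brightest probe set lay at -0.02 after median centring and at 0.31 on the hybridization controls.

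Mmachc and Mmab, which process the cofactor in the cytosol and the mitochondrion, were the lowest members. Mmachc read 415 on the antagomir-122 array and 549 on the control array on its only probe set, which is 1.32-fold lower (log2 ratio -0.40). Mmab read 309 and 383 on its brightest probe set, which is 1.24-fold lower (log2 ratio -0.31). Both stayed below 0 under all 5 scalings, from -0.46 to -0.13 for Mmachc and from -0.38 to -0.03 for Mmab. Neither reached 1.5-fold, and both ratios are of the order of the probe-set spread of 0.33. The other 3 probe sets of Mmab were under the floor on both arrays, with 219.8 and 237 on 1452467_at, 66.7 and 74.9 on 1452468_s_at, and 22.9 and 92.6 on 1443498_at. In all 4 the antagomir-122 value was the lower one, but the last pair, though 4.04-fold apart, lies far under the floor and gives no fold.

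Mmaa, the mitochondrial chaperone, could not be read above the floor. Its only probe set had signals of 236.6 on the antagomir-122 array and 126.9 on the control array. Both lie under 238, the higher one only just, so no fold is given in the main count. With the floor lowered to the 40th percentile, a signal of 108, Mmaa entered with a log2 ratio of 0.90 and was the second member past 1.5-fold, where 8.8% of genes were that much higher. Between these floors 18.0% of 6695 probe sets passed 1.5-fold upwards and 9.41% downwards, so ratios of this size were more frequent there than above the floor, where 5.16% of 16023 probe sets were higher.

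The enzyme methionine synthase and its reactivating partner were close to even. Mtr read 374 on the antagomir-122 array and 348 on the control array, a log2 ratio of 0.11, and its second probe set was under the floor at 185 and 147. Mtrr read 371 and 364 on its single probe set, a log2 ratio of 0.03. The sign of Mtrr was negative after median centring, quantile normalization and loess correction (-0.03, -0.04 and -0.04). Of the 6 readable members other than Cd320, 4 lay within 1.1-fold of even (Tcn2, Lmbrd1, Mtr and Mtrr), as did 36.5% of all genes.

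**Figure D3:**
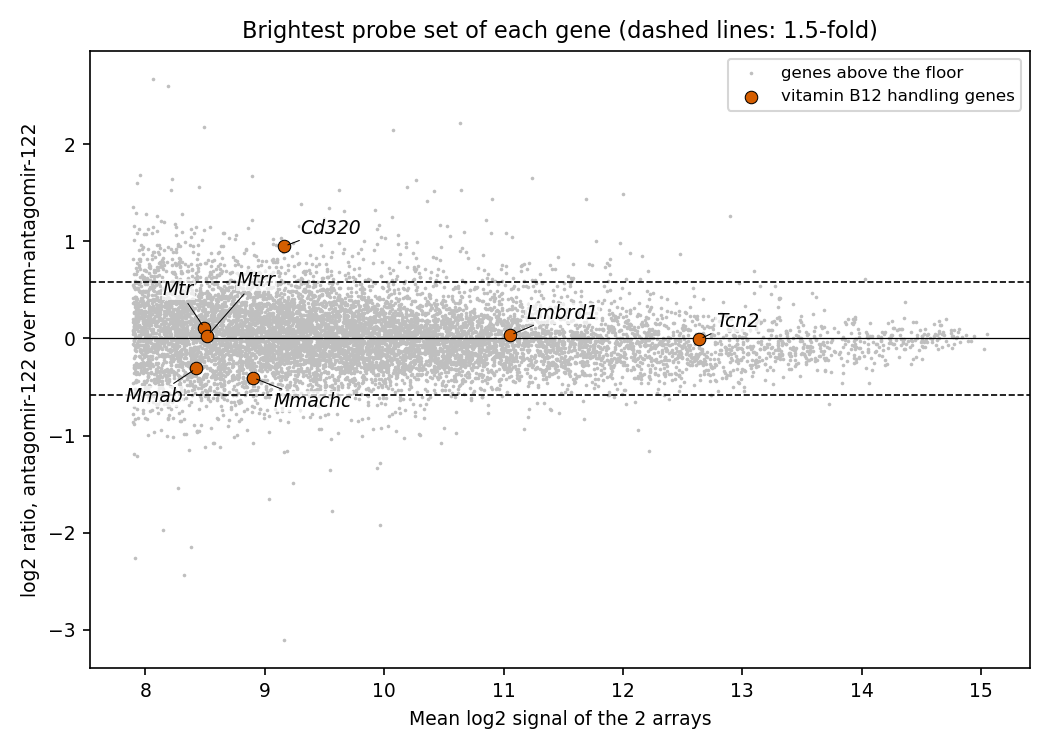
Log2 ratio (antagomir-122 over mm-antagomir-122) against mean log2 signal for the brightest probe set of each of 10003 genes (grey), with the 7 readable vitamin B12 handling genes in orange. Cd320 lies above the upper dashed 1.5-fold line at 0.95, and the other 6 lie between the dashed lines, from -0.40 to 0.11.

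The metabolism around these genes was described with a list of 46 genes. They cover uptake, cofactor processing and its regulators, propionate breakdown, the methionine cycle and the folate cycle. Single-gene probe sets existed for 42 of them, and 33 were above the floor. None of the 33 passed 1.5-fold upwards (0 genes) or downwards (0 genes), against 5.12% and 2.62% of all genes. The list is bright, however, and ratios past 1.5-fold are less frequent among bright genes. With the floor at the 80th percentile, 30 of these genes were left, again with 0 past 1.5-fold either way. The shares of all 5669 genes there were 3.25% higher and 1.73% lower. At the main floor the median log2 ratio of the 33 genes was -0.05, beside 0.00 for all genes above that floor. As deposited 13 lay above 0 and 20 below, where 50.3% of all genes lay above 0. On the hybridization controls 28 lay above and 5 below, but that scaling adds a constant to every gene. The median under it was 0.22 for the list and 0.28 for all genes. Counts around 0 under that scaling, here and in the groups below, therefore show no change of place among all genes. Of the 33, 5 had signals above 16000 on both arrays (Mat1a, Ahcy, Gnmt, Bhmt and Aldh1l1), near the top of the range, where a difference can be compressed.

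Other genes of cobalamin uptake were mostly under the floor. Lrp2 and Cubn encode megalin and cubilin, endocytic receptors best known from kidney and intestine. Lrp2 had signals of 145.4 and 179.9 on the brightest of 3 probe sets, and Cubn had 11.5 and 8.9 on the brighter of 2. Abcd4, the partner of LMBRD1 in the lysosomal membrane, had 111.2 and 205.3 on one probe set and 121.3 and 83.3 on the other. The Abcd4 probe sets thus point in opposite directions, and both are under the floor. Abcc1, a cobalamin exporter, was the one readable member of this group of 6, with signals of 282 and 247 and a log2 ratio of 0.19.

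The group of cofactor processing genes and regulators had a median log2 ratio of -0.27 as deposited and -0.33 after median centring. The median was -0.25 after quantile normalization and also after loess correction. On the hybridization controls it was 0.00, beside 0.28 for all genes. Of the 4 readable members of the group 3 lay below 0 as deposited, namely Mmadhc, Clybl and the regulator Thap11. The regulator Hcfc1 lay at 0.01 on its brightest probe set. Its other probe sets above the floor had -0.41 and -0.56, the last with an antagomir-122 value, 205.7, under the floor. Mmadhc, which directs cobalamin to either enzyme, read 2531 on the antagomir-122 array and 3064 on the control array, a log2 ratio of -0.28. Clybl, a mitochondrial lyase linked to cobalamin levels, had the lowest ratio of all 33 genes, at 711 and 983 (log2 ratio -0.47).

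The propionate pathway delivers the substrate of methylmalonyl-CoA mutase. Its 6 readable genes had a median log2 ratio of -0.10, with 5 below 0 as deposited and 0 below on the hybridization controls. Under that scaling their median was 0.18, beside 0.28 for all genes. The mutase gene Mmut read 3426 on the antagomir-122 array and 3547 on the control array, a log2 ratio of -0.05. A second Mmut probe set above the floor also had -0.05, so the 2 measurements of this cobalamin enzyme differed by less than 0.01.

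In the methionine cycle, which methionine synthase feeds, 11 readable genes had a median log2 ratio of -0.02. As deposited 3 lay above 0 and 8 below, which became 9 and 2 on the hybridization controls. Under that scaling their median was 0.26, beside 0.28 for all genes. Among the 11, Mat1a, Ahcy, Gnmt and Bhmt had signals above 16000 on both arrays, where a difference can be compressed, and the median is the value of Gnmt. Cbs, the first enzyme of homocysteine removal by transsulfuration, was the lowest, at 3217 on the antagomir-122 array and 4119 on the control array (log2 ratio -0.36). A second Cbs probe set had -0.43.

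The folate cycle supplies the methyl group that methionine synthase transfers. Its 11 readable genes had a median log2 ratio of 0.04, with 7 above 0 and 4 below as deposited and 10 above on the hybridization controls. Under that scaling their median was 0.32, beside 0.28 for all genes. Among those above 0 as deposited, the serine hydroxymethyltransferase genes Shmt1 and Shmt2 also had probe sets above the floor with ratios below 0. Slc19a1, the reduced folate carrier, had the highest ratio of the 33 genes, at 955 on the antagomir-122 array and 752 on the control array (log2 ratio 0.35). A second Slc19a1 probe set read 664 and 464, a log2 ratio of 0.52. Folr2, a folate receptor of macrophages, and Fpgs, which adds glutamates to folate, each had 0.23. Mthfd1, a trifunctional folate enzyme, was lowest at -0.33, and its other probe sets had -0.39 and -0.73.

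Probe sets of a gene did not always agree in this list. Of the 12 genes with several probe sets above the floor, 5 had probe sets on both sides of 0. Of the 52 probe sets, 0 passed 1.5-fold upwards and 2 downwards, beside 5.16% and 3.24% of all probe sets above the floor. These were 1436704_x_at of Mthfd1, which can cross-hybridise, and 1425177_at of Shmt1, a serine hydroxymethyltransferase that was named after its values were seen. The Shmt1 probe set read 1999 and 3913, a log2 ratio of -0.97, while the brightest of that gene had 0.08. The remaining Shmt1 probe sets above the floor had -0.13 and -0.30.

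**Figure D4:**
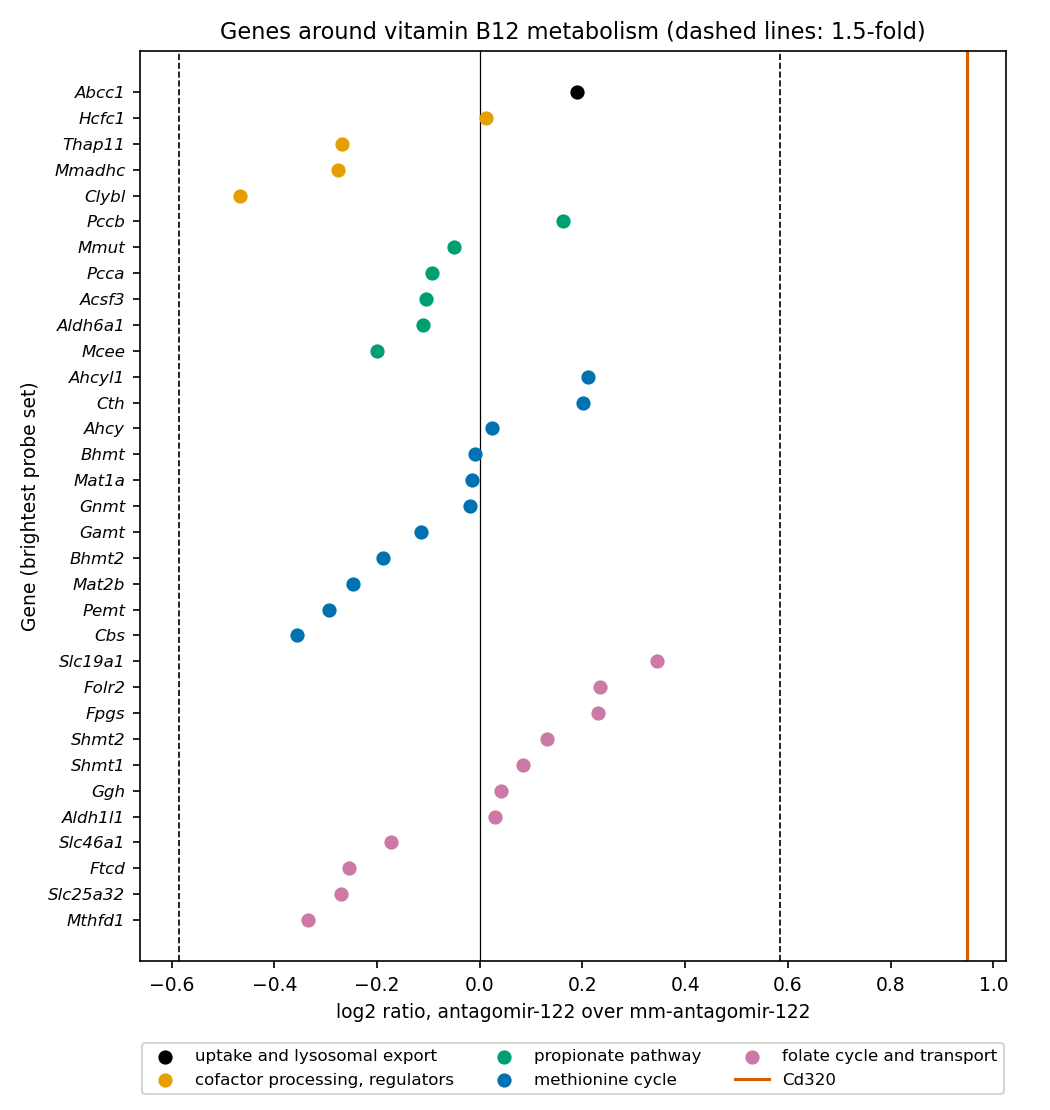
Log2 ratios (antagomir-122 over mm-antagomir-122) of 33 genes around vitamin B12 metabolism, brightest probe set of each, coloured by function, with 1 array per group. All 33 lie between the dashed 1.5-fold lines, from -0.47 for Clybl to 0.35 for Slc19a1, and the vertical orange line marks Cd320 at 0.95.

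Among genes reported as miR-122 targets, Cd320 took a middle place. Of 11 such genes, 10 were above the floor, and Cd320 ranked 6 among their log2 ratios. Of the 9 without Cd320, 7 passed 1.5-fold upwards, and their median log2 ratio was 1.05. Tmed3, a cargo receptor of the secretory pathway, stood just above Cd320 and was that median, and Aldoa, an aldolase, just below at 0.87. The targets that did not pass were Iqgap1 at 0.28 and Slc7a1, which was lower at -0.17. The same limit on independence holds for the count of these targets. Over all genes, the ratios closest to that of Cd320 were those of Rbms3, Rgs12 and Lor, each 0.95 and within 0.01 of it, over the single contrast of these 2 arrays.

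Marker genes of several cell types were read beside these values, because whole liver was measured. In such a sample fewer cells of a type and less RNA per cell cannot be told apart. The 6 hepatocyte markers (Alb, Ttr, Apob, Cps1, Hnf4a and Cebpa) were all above the floor, as the label liver implies, and summed to 120857 on the antagomir-122 array and 122437 on the control array. Of these, Alb, Ttr, Apob and Cps1 had signals above 16000 on both arrays, where a difference can be compressed, and the 2 others summed to 19260 and 20302. Of 10 macrophage markers, 10 lay above 0 under all 5 scalings, as deposited with a median log2 ratio of 0.40 and summed signals of 61971 and 47213. Of 7 neutrophil markers, 6 were readable, 5 lay above 0 as deposited, and the sums were 8013 and 2451. Elane went the other way, at a log2 ratio of -0.31, and the control values of Ltf (197.8) and Mpo (164.2) were under the floor. Of 8 lymphocyte markers, 6 were readable, all 6 above 0 as deposited, with sums of 6526 and 3964. The largest parts of these sums were Ighm (2785 and 1309) and Ptprc (2173 and 1527), a gene of leukocytes in general. Cd79b was near even at a log2 ratio of 0.02, and the control value of Cd79a, 207.5, was under the floor. The 9 endothelial markers summed to 16279 and 16168, with 6 above 0 as deposited, and the 5 stellate cell markers to 6709 and 5673, with 3 above 0. Camp of the neutrophil list and the T cell genes Cd3e and Cd3g were under the floor. No marker list has a value at 0 that could be read as absence, since MAS5 gives a signal for every probe set. The readable macrophage and lymphocyte markers, and most of the neutrophil ones, thus moved in the direction of Cd320 as deposited. Their part in its value was not tested.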

How the data were processed

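The authors deposited 1 linear intensity for each probe set and array. The submitters' processing notes name MAS5. Its version, the background settings and the genome build are not given in the sources used here. The 2% trimmed mean was 500.0 on both arrays. Detection calls and probe-level values were not used here. Gene names came from the platform annotation, updated through gene identifiers with RefSeq's GRCm38.p6 table; 34945 probe sets had 1 gene, 932 had several, 9160 had none and 64 were controls. The lookup found 34741 and changed 0 symbols.

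Ratios are log2 of the antagomir-122 over the mm-antagomir-122 intensity, with no pseudocount. The calculation was tested on simulated data with planted fold changes. Python 3.11.15 with pandas 2.3.3 and statsmodels 0.14.6 was used. Members, lists and alternatives were chosen with earlier results of these data known. Named genes were all members; from the wider list, genes past 1.5-fold, the 3 highest, the 3 lowest and Mmut, Mmadhc, Abcd4, Lrp2 and Cubn; up to 4 targets; and the 3 genes closest to Cd320 in ratio. Abcc1 was also named because it was the readable member of its group, and Mat1a, Ahcy, Gnmt, Bhmt and Aldh1l1 for their bright signals, all after their values were seen. Hcfc1 and Thap11 were likewise named after their values were seen, as the remaining readable members of the cofactor group. So were Shmt2, for its conflicting probe sets, and Iqgap1 and Slc7a1, as the targets that did not pass 1.5-fold. Alternatives covered scaling, floor, pseudocount (37.8), probe-set choice and threshold.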

Additional observations from a re-analysis of the deposited data

How the results depend on the processing

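The log2 ratio of Cd320 lay between 0.89 and 1.22 in the settings that gave one. With the floor at the 80th percentile, a signal of 671, Cd320 dropped out. The count of members at least 1.5-fold higher was then 0, because 2 members (Tcn2 and Lmbrd1) were left, beside 3.25% of 5669 genes. At a 2-fold threshold that count was also 0, beside 0.83% of 10003 genes. It was 2 with the floor at the 40th percentile and with no floor, where Mmaa entered. With no floor 15.2% of 18193 genes were at least 1.5-fold higher and 9.42% lower. The count of members at least 1.5-fold lower was 0 in every setting. The share of all genes that were lower ran from 0.31% at the 2-fold threshold to 9.42% with no floor. In the wider list, the count at least 1.5-fold higher was 1 of 33 genes on the hybridization controls, beside 16.9% of all genes. It was 1 of 38 with the floor at the 40th percentile, beside 8.8%, and 3 of 42 with no floor, beside 15.2%. The count of wider genes at least 1.5-fold lower was 1 with the floor at the 40th percentile, where 4.02% of 13216 genes were lower, and 1 with no floor. At these lower floors all such genes, higher or lower, were ones added from under the main floor. Ratios of the other members and both medians moved by less than 0.28, the spread between probe sets of a gene, in the settings that gave a value. This yardstick replaces a replicate SD, which these data lack. The largest move was the constant of 0.27 that scaling on the hybridization controls adds to every gene, so it reflects that scaling and not probe-set scatter. It is larger in size than the ratios of Tcn2, Lmbrd1, Mtr and Mtrr and than both medians. No replicate could be left out. No paired analysis was possible because each group has 1 array and the result comes from no test. Without detection calls, signals under the floor limit what can be said of Mmaa, Mmab and Abcd4.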
